A study of Mus musculus with 35 samples.

Results

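The genes described here are the 5 subunits of the transcription factor NF-kB (Nfkb1, Nfkb2, Rela, Relb and Rel) and 5 genes of its feedback control (Nfkbia, Nfkbie, Nfkbiz, Tnfaip3 and Bcl3), chosen by symbol as 10 of 53379 genes in the count table. They were followed in myeloid-derived suppressor cells (MDSC) of mice with pancreatic tumors. T110299 cells, a mouse pancreatic tumor line, had been implanted into the pancreas of 8 C57BL/6 mice, female and of wild type genotype, with wild type mice given as 6 to 12 weeks old in the methods. On days 18 and 20, 4 mice received 50 µg of poly(I:C) complexed with polyethylenimine at an N/P ratio of 6, written poly(I:C)c, and the 4 control mice are called untreated in the labels, whose protocol names glucose as the control. Poly(I:C)c is a double-stranded RNA that is carried into the cytosol, where the helicase MDA5 senses it. All animals carried a tumor, so no group represents MDSC of healthy mice, and 1 tumor line stands for the disease.

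PMN-MDSC (CD11b+ Ly6C lo Ly6G+) and M-MDSC (CD11b+ Ly6C hi Ly6G-) were sorted from spleens and from enzymatically dissociated tumors. Total RNA was also taken from bulk tumor tissue of untreated mice, for which the paper's methods describe no dissociation. Each of the 9 groups held 4 libraries, except PMN-MDSC from treated spleens and M-MDSC from treated tumors with 3 each. No label ties a count column to a mouse number, so libraries are numbered in column order within a group, and the p-values measure the spread between these libraries. The sample titles repeat numbers across organs and populations, and with 8 mice in all, libraries of different groups shared mice. The comparisons and interactions across organs, populations and bulk tumor treated them as independent, so their p-values ignore this pairing. The 30 MDSC libraries held 793070 to 4357105 counts, and the 4 bulk tumor libraries 3771590 to 8886115. Levels are given as CPM, a gene's count scaled to the same library total in every library, or per kilobase of exon as well (FPKM) where genes are compared with each other. Differences are log2 fold changes from edgeR's quasi-likelihood F-test with TMM scaling, and a gene was called at a Benjamini-Hochberg adjusted p under 0.05 over all genes tested. All 10 genes passed the minimum mean of 25 counts in every comparison.

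NF-kB dimers of the Rel homology family are held in the cytosol by IkB proteins until receptors for microbial RNA, interleukin-1 or tumor necrosis factor activate the IkB kinase complex, which marks IkB proteins for degradation. The released dimers bind kB sites in DNA and switch on inflammatory genes together with the genes of their own inhibitors, so that transcripts such as Nfkbia and Tnfaip3 rise soon after activation and then limit it. In neutrophils and monocytes this circuit controls cytokines, chemokines and cell survival.

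On GRCm38, Nfkb1 (ENSMUSG00000028163.17, chr3:135584655-135691547) encodes the precursor p105 of the subunit p50, Nfkb2 (ENSMUSG00000025225.14, chr19:46304320-46312385) encodes the precursor p100 of the subunit p52, and Rela (ENSMUSG00000024927.7, chr19:5637483-5648130) encodes the subunit p65 of the classical dimer. Relb (ENSMUSG00000002983.17, chr7:19606217-19629438) encodes the subunit of the alternative pathway, and Rel (ENSMUSG00000020275.9, chr11:23736847-23770970) encodes the subunit c-Rel of lymphoid and myeloid cells. Of the feedback genes, Nfkbia (ENSMUSG00000021025.8, chr12:55489410-55492647) encodes the inhibitor IkB alpha, and Nfkbie (ENSMUSG00000023947.7, chr17:45555703-45563169) encodes the inhibitor IkB epsilon. Nfkbiz (ENSMUSG00000035356.16, chr16:55811375-55838899) encodes the nuclear cofactor IkB zeta. Tnfaip3 (ENSMUSG00000019850.11, chr10:19000910-19015657) encodes A20, a ubiquitin-editing enzyme that acts upstream of the IkB kinases. Bcl3 (ENSMUSG00000053175.17, chr7:19808462-19822770) encodes an atypical nuclear IkB protein that binds p50 and p52 dimers. All 10 are protein coding genes whose values sum over all exons.

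The following windows of 30 bases show where the kB consensus, a motif of 10 bases, lay near the RefSeq start sites of these genes, since feedback by NF-kB itself is what several of them are known for. The RefSeq windows reached from 250 bases before to 50 bases after a start site on GRCm38.p6, capitals mark the match, and both strands were searched. Sequences are written 5′ to 3′ on the strand of the gene.
Nfkbia chr12:55492657-55492686 (minus strand): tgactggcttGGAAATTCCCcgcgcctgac
Nfkbie chr17:45555584-45555613 (plus strand): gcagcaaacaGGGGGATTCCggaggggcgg
Tnfaip3 chr10:19015516-19015545 (minus strand): gactcacgcgGGGACACCCCggggcgggac
Tnfaip3 chr10:19015403-19015432 (minus strand): aatttccatcGGAAATCCCCctgttggcaa
Bcl3 chr7:19822734-19822763 (minus strand): tcggcggcagGGGAAGTCCCgctgcccggc
Rel chr11:23771042-23771071 (minus strand): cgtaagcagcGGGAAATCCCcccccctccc
Nfkb2 chr19:46304688-46304717 (plus strand): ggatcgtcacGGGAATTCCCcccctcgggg
Nfkb2 chr19:46304716-46304745 (plus strand): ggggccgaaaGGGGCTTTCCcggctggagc
Nfkb2 chr19:46305695-46305724 (plus strand): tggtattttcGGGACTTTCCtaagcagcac
A window was found for 7 of the 10 genes, and 6 of the 7 held at least 1 match, all but Rela. Of 27025 genes with a window, 9.55% held one. The match of Nfkbia lay 29 to 20 bases before the start. Those of Rel and Nfkb2 shown first overlapped a second match shifted by 1 base. By GENCODE M21 the matches of Nfkbia, Nfkbie and Rel were upstream of the gene, both of Tnfaip3 were intronic, and those of Bcl3 and the 3 shown for Nfkb2 fell into exons of untranslated regions. These matches are letters in a window and no measure of binding. A further intronic match of Nfkb2 is not shown. Nfkb1, Relb and Nfkbiz were not searched.

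The sorted libraries were first checked against cell type markers. Ly6g, which defined the PMN-MDSC gate, had 55.2 ± 21.1 CPM (SD, n = 4) in splenic PMN-MDSC of untreated mice, 2.94 ± 4.22 in tumor PMN-MDSC of untreated mice and 29.96 ± 32.3 in those of treated mice. The summed level of 10 neutrophil markers was 22674 to 41100.0 CPM in splenic and 1069 to 4521 CPM in tumor PMN-MDSC of untreated mice, against 4097 to 10326 and 247 to 788 CPM in M-MDSC. The 6 macrophage markers summed to 8970.2 to 12331 CPM in tumor PMN-MDSC of untreated mice, above the 2508 to 7562 CPM of tumor M-MDSC and the 371 to 1139 CPM of splenic PMN-MDSC. Monocyte markers went with the labels, with sums of 4528 to 9071 CPM in tumor PMN-MDSC and 11150.2 to 14823 CPM in tumor M-MDSC of untreated mice. Between these groups, 4 neutrophil markers were higher and 0 lower in PMN-MDSC of 9 tested, and 0 monocyte markers higher and 5 lower of 8. Beside splenic PMN-MDSC the tumor PMN-MDSC libraries were low in neutrophil and high in macrophage transcripts, which went against their label. They are named here by their gate. The part of this makeup in the results below was not tested. In bulk RNA, of sorted cells as of whole tumors, fewer cells of a type and less RNA per cell cannot be told apart.

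In the MDSC of untreated mice, 4 of the feedback genes stood above all 5 subunits in the tumor but not in the spleen. Per length, Nfkbia was first of the 10 in all 8 MDSC groups, with 74.4 ± 14.7 FPKM (SD, n = 4) in splenic and 911 ± 129.5 FPKM in tumor PMN-MDSC of untreated mice. In both tumor populations of untreated mice Nfkbiz followed with 373 ± 41.7 and 288 ± 45.3 FPKM, then Tnfaip3 with 316 ± 38.6 and 238 ± 41.4 FPKM, then Nfkbie with 128 ± 32.5 and 123 ± 25.6 FPKM. The mean ± SD ranges of Nfkbiz and Tnfaip3 overlapped in both. Since both genes were measured in the same libraries, this overlap does not judge their order, which was not tested. The subunits and Bcl3 took the lower places, from 42.1 ± 10.1 FPKM for Nfkb2 to 13.9 ± 4.59 FPKM for Relb in tumor PMN-MDSC. Tnfaip3 was last of the 10 in splenic PMN-MDSC of untreated mice with 7.27 ± 1.36 FPKM and the third in tumor PMN-MDSC. Bulk tumor had the lowest mean of all 9 groups for 9 of the 10 genes. The exception was Nfkbiz, whose 24.9 ± 2.35 FPKM lay above the 13.8 ± 4.02 FPKM of untreated splenic M-MDSC.

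**Figure D1:**
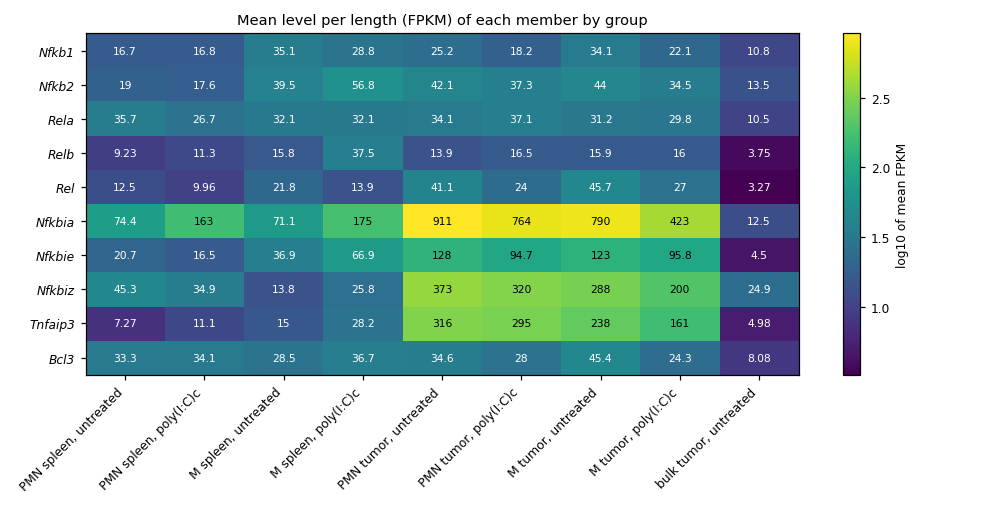
Mean level per length (FPKM, printed in each cell) of the 10 genes in the 9 groups, with color on a log10 scale. The 4 rows Nfkbia, Nfkbie, Nfkbiz and Tnfaip3 are brightest in the 4 tumor MDSC columns and the bulk tumor column is darkest.

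Among the comparisons between 2 MDSC groups, the largest log2 fold changes of Nfkbia, Nfkbie, Nfkbiz, Tnfaip3 and Rel were those of tumor against spleen in untreated mice. In PMN-MDSC, 6 of the 10 genes were higher in the tumor and 0 lower, where 59.1% of 7971 genes were called (29.4% higher and 29.7% lower). The 6 were the feedback genes Nfkbia, Nfkbie, Nfkbiz and Tnfaip3 and the subunits Rel and Nfkb2. In M-MDSC, 6 were also higher and 0 lower, where 28.4% of 8298 genes were called (15.7% higher and 12.7% lower), and these were Nfkbia, Nfkbie, Nfkbiz, Tnfaip3, Rel and Bcl3. By TMM-scaled levels the groups of all called genes did not overlap, as was also the case for 55.1% of all genes in PMN-MDSC and 31.2% in M-MDSC. Whether the 2 populations differed in this difference was not tested.

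The transcript of A20, Tnfaip3, had 61.5, 40.3, 48.8 and 59.4 CPM in the 4 splenic PMN-MDSC libraries of untreated mice and 2031, 2202, 2683 and 2228 CPM in the 4 tumor libraries. Every tumor library lay far above every splenic one, and the log2 fold change was 5.32 ± 0.21 (SE, edgeR adjusted p = 3.54e-07). In M-MDSC the values were 120.2, 60.8, 136 and 116 CPM in spleen and 1933, 1623, 1982 and 1338 CPM in tumor. The groups were again apart, with a log2 fold change of 4.25 ± 0.24 (SE, edgeR adjusted p = 2.09e-07).

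Nfkbia had 95.2, 150.4, 109 and 124 CPM in splenic and 1205, 1486, 1714 and 1465 CPM in tumor PMN-MDSC of untreated mice. All tumor libraries were higher, and the log2 fold change was 3.46 ± 0.25 (SE, edgeR adjusted p = 4.02e-06). In M-MDSC, Nfkbia had 130.3, 91.97, 111 and 124 CPM in spleen and 1465, 1328, 1304 and 991 CPM in tumor, a log2 fold change of 3.73 ± 0.17 (SE, edgeR adjusted p = 3.39e-08). The splenic levels of both populations overlapped, and so did the tumor levels.

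Nfkbiz, whose product acts at a subset of NF-kB targets, had 198, 218, 231 and 264 CPM in splenic and 1724, 1876, 2166 and 1721 CPM in tumor PMN-MDSC, a log2 fold change of 2.903 ± 0.19 (SE, edgeR adjusted p = 2.95e-06). In M-MDSC it had 65.9, 53.9, 57.9 and 98.3 CPM in spleen and 1625, 1559, 1488 and 1117 CPM in tumor, a log2 fold change of 4.64 ± 0.21 (SE, edgeR adjusted p = 4.87e-08). The groups did not overlap in either population, and among the 4 groups the splenic M-MDSC libraries were lowest. Nfkbie had 53.3 to 84.9 CPM in splenic and 279.6 to 514 CPM in tumor PMN-MDSC (log2 fold change 2.498 ± 0.22 SE, edgeR adjusted p = 1.13e-05) and 66.4 to 139.7 CPM in splenic and 305 to 473 CPM in tumor M-MDSC (2.0001 ± 0.21 SE, edgeR adjusted p = 2.98e-05).

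Bcl3 had 103, 87.3, 33.1 and 58.8 CPM in splenic and 118, 119.96, 109 and 102 CPM in tumor M-MDSC of untreated mice, levels that overlapped before TMM scaling. The log2 fold change of 0.94 ± 0.28 (SE, edgeR adjusted p = 0.027) was no longer past the threshold in 5 of the 8 fits that left out 1 library, 4 of them without 1 of the tumor libraries and 1 without the fourth splenic library (edgeR adjusted p = 0.0535 to 0.0886), and with upper-quartile scaling. In PMN-MDSC the Bcl3 levels of 44.7 to 136 CPM in spleen spanned the 78.3 to 92.3 CPM of the tumor, with a log2 fold change of -0.11 ± 0.33 (SE, edgeR adjusted p = 0.778), and upper-quartile scaling turned its sign.

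Of the subunits, Rel was higher in the tumor in both populations. It had 119.6, 57.8, 79.3 and 117 CPM in splenic and 356, 276, 362 and 233 CPM in tumor PMN-MDSC, a log2 fold change of 1.599 ± 0.22 (SE, edgeR adjusted p = 1.76e-04). In M-MDSC it had 166, 131, 145 and 211 CPM in spleen and 351, 297, 422 and 295 CPM in tumor, a log2 fold change of 1.33 ± 0.16 (SE, edgeR adjusted p = 9.03e-05). No splenic library reached a tumor library in either population. Nfkb2 had 62.7 to 102 CPM in splenic and 132 to 244 CPM in tumor PMN-MDSC (1.01 ± 0.21 SE, edgeR adjusted p = 0.00228) and gave 0.42 ± 0.15 (SE, edgeR adjusted p = 0.0517) in M-MDSC, where the groups overlapped. Nfkb1 gave 0.46 ± 0.204 (SE, edgeR adjusted p = 0.0731) in PMN-MDSC and 0.22 ± 0.12 (SE, edgeR adjusted p = 0.198) in M-MDSC. In PMN-MDSC it was called in 3 of 5 alternatives (upper-quartile scaling, DESeq2 and 1 fit over all groups, adjusted p down to 0.0242, where 59.6%, 60.6% and 61.6% of all genes were called) and without the first or the second splenic library (edgeR adjusted p = 0.0282 and 0.0398). In M-MDSC Nfkb2 was called by DESeq2 (adjusted p = 0.0393, with 30.5% of all genes called) and without the second tumor library (edgeR adjusted p = 0.0312). Rela gave -0.21 ± 0.17 (SE, edgeR adjusted p = 0.302) and 0.24 ± 0.18 (SE, edgeR adjusted p = 0.365). Relb gave 0.46 ± 0.26 (SE, edgeR adjusted p = 0.148) and 0.28 ± 0.202 (SE, edgeR adjusted p = 0.343), and in PMN-MDSC it was called without the second tumor library (0.66, edgeR adjusted p = 0.0275). Rela stood at 109.6 ± 7.65, 105 ± 13.3, 98.5 ± 11.7 and 95.9 ± 26.1 CPM (SD, n = 4 each) in splenic PMN-MDSC, tumor PMN-MDSC, splenic M-MDSC and tumor M-MDSC of untreated mice, the narrowest range of group means among the 10 genes.

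Tumor cells, unlike spleen cells, had been released with enzymes, and transcripts known to respond to such handling moved in the same comparison. Of 11 immediate early and heat shock genes (Fos, Jun, Egr1, Atf3, Hspa1a and others), 9 were higher in tumor than in splenic PMN-MDSC with a median log2 fold change of 2.395 (all genes 0.0098), and 11 in M-MDSC with a median of 5.31 (all genes 0.016). Their summed level was 2076 to 3979.6 CPM in splenic and 12299 to 15386 CPM in tumor PMN-MDSC, and 509.9 to 796 and 13492 to 13763 CPM in M-MDSC. The 6 macrophage markers were higher in the tumor in both populations, 6 of 6 in M-MDSC with a median log2 fold change of 3.499 (sums of 732 to 1016 CPM in spleen and 2508 to 7562 CPM in tumor) and 6 of 6 in PMN-MDSC with a median of 2.95. Of 8 monocyte markers 7 were higher and 1 lower in PMN-MDSC (median 2.35), and 4 higher and 0 lower in M-MDSC (median 0.55). All epithelial markers tested were higher, 4 in PMN-MDSC (median 9.62) and 3 in M-MDSC (median 5.47). Of neutrophil markers 10 of 10 tested were lower in PMN-MDSC and 6 of 7 in M-MDSC. Their part in the result was not tested. Compartment and handling cannot be told apart in this design. The 10 genes themselves summed to 938 to 1151 CPM in splenic and 6494 to 8289 CPM in tumor PMN-MDSC, with medians of their log2 fold changes of 1.31 in PMN-MDSC and 1.13 in M-MDSC.

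**Figure D2:**
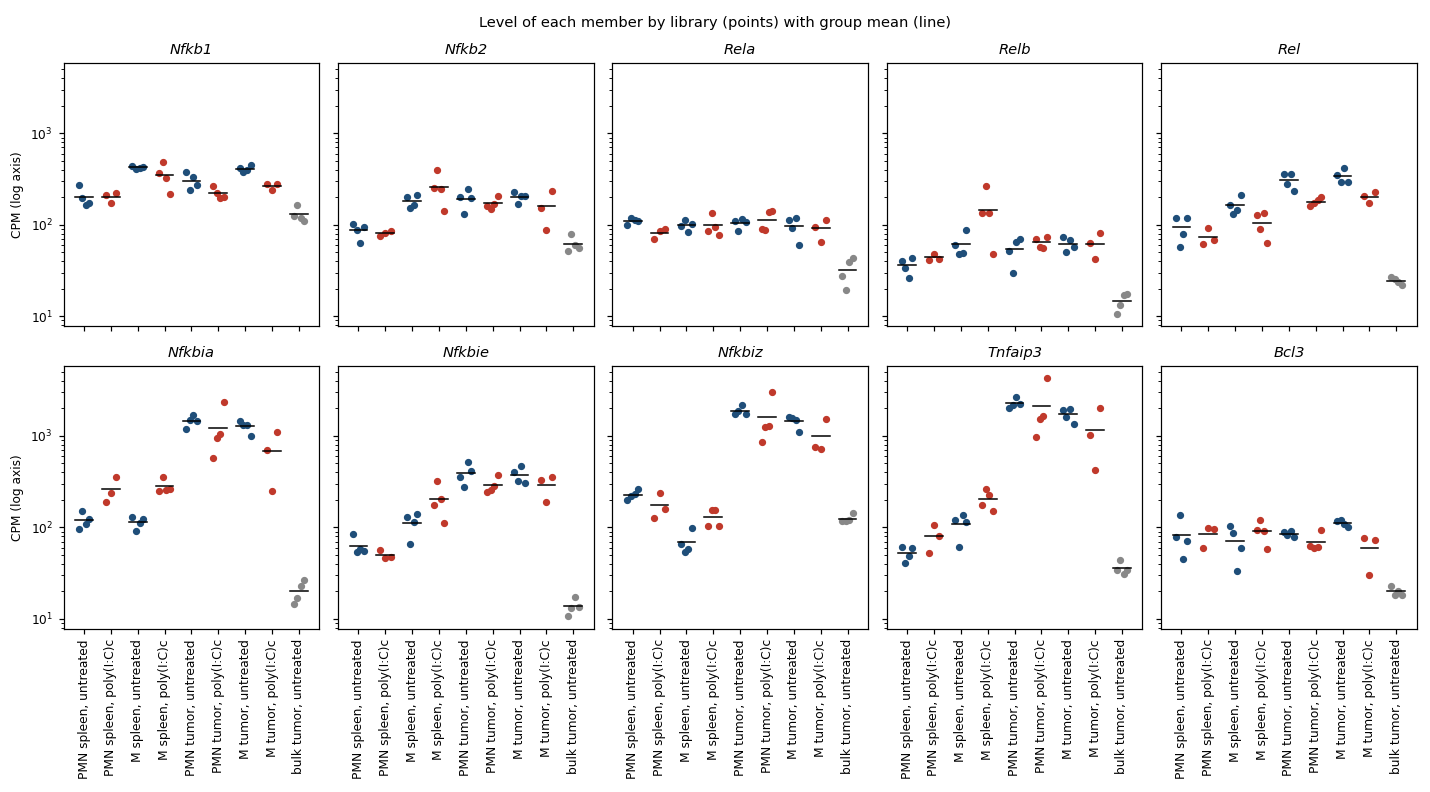
Level in CPM (log axis) of each of the 10 genes in every library (points) and the group mean (line), in blue for untreated, red for poly(I:C)c and gray for bulk tumor. In Nfkbia, Nfkbie, Nfkbiz, Tnfaip3 and Rel the blue tumor MDSC points lie above all blue splenic points, whereas the Rela points of all 8 MDSC groups lie in 1 band.

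Bulk tumor, which contains all cells of the tumor and for which no dissociation is described, held less of all 10 genes than the MDSC sorted from such tumors. Against tumor PMN-MDSC 10 of 10 were lower, where 69.7% of 11138 genes were called (36.9% higher and 32.8% lower), and against tumor M-MDSC 10 of 10, where 69.2% of 11022 genes were called (38.2% higher and 31% lower). No group overlapped, as was the case for 64.8% and 64% of all genes. Nfkbia had 14.4, 16.7, 22.7 and 26.9 CPM in the 4 bulk tumor libraries, and its log2 fold change was -6.46 ± 0.27 (SE, edgeR adjusted p = 7.58e-09) against tumor PMN-MDSC and -6.16 ± 0.28 (SE, edgeR adjusted p = 1.75e-08) against tumor M-MDSC. Tnfaip3 had 34.2, 44.01, 31.2 and 34.5 CPM there, with -6.26 ± 0.23 (SE, edgeR adjusted p = 4.48e-09), and -5.77 ± 0.26 (SE, edgeR adjusted p = 1.58e-08). These bulk levels lay below every tumor MDSC library, treated or untreated.

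The 4 feedback genes other than Bcl3, and Rel, had the largest log2 fold changes. Against tumor PMN-MDSC the log2 fold change was -5.097 ± 0.24 for Nfkbie, -4.18 ± 0.19 for Nfkbiz and -3.91 ± 0.19 for Rel (SE). It was -2.36 ± 0.16 for Bcl3, -2.16 ± 0.27 for Relb and -1.97 ± 0.23 for Rela. The smallest difference was that of Nfkb1, -1.49 ± 0.19 (edgeR adjusted p = 2.59e-05), beside -1.91 ± 0.21 for Nfkb2. Against tumor M-MDSC the smallest was Rela with -1.78 ± 0.28 (edgeR adjusted p = 1.40e-04). The 11 immediate early and heat shock genes were lower in bulk tumor in 11 of 11 cases in both comparisons, with medians of -7.23 and -7.27, and summed to 217 to 246 CPM there. The part of tissue handling in these differences was not tested. Epithelial markers summed to 4923 to 6689 CPM in bulk tumor and 126 to 762 CPM in tumor PMN-MDSC. The median log2 fold change of all genes was 0.11 and 0.17 here, and upper-quartile scaling moved it to 0.39 and 0.38.

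**Figure D3:**
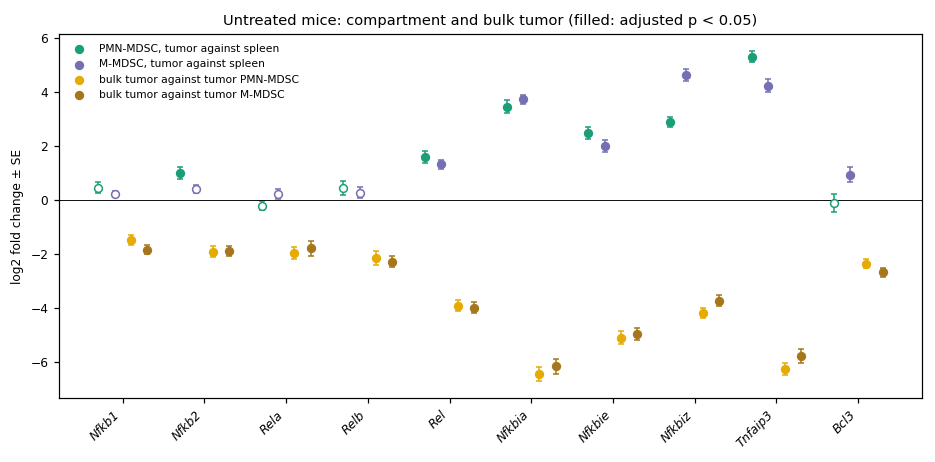
Log2 fold changes with their SE of the 10 genes in untreated mice, tumor against spleen in PMN-MDSC and M-MDSC and bulk tumor against each tumor MDSC population, filled where the adjusted p was under 0.05. The tumor against spleen points rise to 5.32 for Tnfaip3 and 4.64 for Nfkbiz, and all bulk tumor points lie below 0 and are filled.

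Splenic PMN-MDSC and M-MDSC of untreated mice differed in 5 of the 10 genes, 2 higher and 3 lower in PMN-MDSC, where 64.4% of 8579 genes were called (30.9% higher and 33.4% lower). Nfkbiz was higher in PMN-MDSC, with the per-library values given above (228 ± 27.7 against 69.01 ± 20.2 CPM, SD, n = 4 each), and the log2 fold change was 2.098 ± 0.198 (SE, edgeR adjusted p = 2.30e-05). Rela was higher with 0.53 ± 0.14 (SE, edgeR adjusted p = 0.00868). This difference depended on the scaling: the levels per library total were 99.2 to 118 and 83.2 to 111 CPM and overlapped, and with upper-quartile scaling it was 0.29 with an edgeR adjusted p of 0.108. Nfkb1 had 271, 196, 166 and 172 CPM in PMN-MDSC and 445, 407, 414 and 429 CPM in M-MDSC, a log2 fold change of -0.6997 ± 0.16 (SE, edgeR adjusted p = 0.00325). All M-MDSC libraries were above all PMN-MDSC libraries, a separation that 59.2% of all genes showed. Nfkb2 (-0.68 ± 0.17 SE, edgeR adjusted p = 0.0062) and Tnfaip3 (-0.66 ± 0.23 SE, edgeR adjusted p = 0.0274) were also lower in PMN-MDSC, and the call for Tnfaip3 was lost in 4 of 8 fits without 1 library (the first or the third M-MDSC, the second or the third PMN-MDSC library; edgeR adjusted p = 0.0604 to 0.0741) and in 1 fit over all groups. Nfkbia gave 0.45 with an edgeR adjusted p of 0.0547, and it was called with RLE scaling, DESeq2 and no filter on low counts, where 64.4%, 65.5% and 26.4% of all genes were, and without the first PMN-MDSC library (0.58, edgeR adjusted p = 0.0119). Relb gave -0.40 (edgeR adjusted p = 0.134), Rel -0.43 (edgeR adjusted p = 0.116) and Nfkbie -0.46 (edgeR adjusted p = 0.0982), and all 3 were called with upper-quartile scaling (67.1% of all genes), as was Nfkbie without the first PMN-MDSC or the second M-MDSC library. Bcl3 gave 0.60 (edgeR adjusted p = 0.215). In the same comparison 8 of 10 immediate early and heat shock genes tested were higher in PMN-MDSC and 0 lower, with a median log2 fold change of 2.55, and the 6 macrophage markers gave 4 higher and 0 lower with a median of 2.06. Their part in the result was not tested.

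In the tumor of untreated mice, 0 of the 10 genes were called between PMN-MDSC and M-MDSC, where 13% of 7623 genes were called (7.25% higher and 5.73% lower). By edgeR 4 of them had an unadjusted p under 0.05, as did 27.7% of all genes, and DESeq2 called 2, Nfkbiz and Tnfaip3, and 16.6% of all genes. Tnfaip3 gave 0.46 ± 0.17 (SE, edgeR adjusted p = 0.0951), with groups that did not overlap. Nfkbiz gave 0.42 ± 0.16 (SE, edgeR adjusted p = 0.115), also without overlap, which 19.7% of all genes showed. Against 2.10 in the spleen this is a smaller Nfkbiz difference, but the change between organs was not tested. The 6 macrophage markers, as given above, stood higher in the tumor PMN-MDSC than in the tumor M-MDSC libraries of untreated mice.

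The study asked how poly(I:C)c changes MDSC, and in the spleen it raised Nfkbia in both populations. In splenic M-MDSC 3 of the 10 genes were higher and 0 lower, where 19.4% of 8827 genes were called (9.96% higher and 9.48% lower). In splenic PMN-MDSC 1 was higher and 0 lower, where 11.6% of 7261 genes were called (6.1% higher and 5.52% lower). The treated groups share their untreated libraries with the comparisons of organs and populations above. Interferon-stimulated genes marked the treatment in every population, with a sum over 10 genes of 678 to 1131 CPM in untreated and 4432 to 11509 CPM in treated splenic PMN-MDSC, and 732 to 866 and 4022 to 7906 CPM in splenic M-MDSC. Other lists moved as well. In splenic PMN-MDSC the 6 macrophage markers were lower in treated mice in 6 of 6 cases, with a median log2 fold change of -2.44 and sums of 371 to 1139 CPM in untreated and 66.6 to 175 CPM in treated mice, and 4 of 10 neutrophil markers were higher. Of the monocyte markers 1 was higher and 3 were lower of 7 tested (median -1.43), and of the immediate early and heat shock genes 0 were higher and 3 lower of 10 tested (median -1.06). Erythroid marker sums were 46.3 to 142 CPM in untreated and 0 to 3.84 CPM in treated splenic PMN-MDSC, and 20.9 to 60.0 and 0.675 to 2.91 CPM in splenic M-MDSC. In splenic PMN-MDSC dendritic marker sums went from 18.9 to 35.02 to 1.08 to 4.455 CPM, and B cell marker sums from 35.4 to 90.2 to 10.9 to 34.9 CPM. In splenic M-MDSC the monocyte markers summed to 6860.4 to 10567 CPM in untreated and 3712 to 5223 CPM in treated mice, with 2 of 8 higher and 3 lower, and of the 6 macrophage markers 3 were higher and 1 lower. Their part in the results was not tested.

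Nfkbia had 190.2, 238 and 357 CPM in the 3 splenic PMN-MDSC libraries of treated mice. Each was above the highest untreated library, 150.4 CPM, a separation that 26.7% of all genes showed, and the log2 fold change was 1.41 ± 0.28 (SE, edgeR adjusted p = 0.0171). Without the third treated library it was 1.12 (edgeR adjusted p = 0.0714), and without the fourth untreated library 1.397 (edgeR adjusted p = 0.0564). In splenic M-MDSC of treated mice Nfkbia had 248, 353, 259.6 and 266 CPM, all above the untreated maximum of 130.3 CPM. The log2 fold change was 1.36 ± 0.16 (SE, edgeR adjusted p = 5.50e-04), and it stayed past the threshold without any 1 library.

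Nfkbiz and Tnfaip3 also rose in splenic M-MDSC. Nfkbiz had 104, 155, 154 and 105 CPM in treated mice against 53.9 to 98.3 CPM in untreated mice, a log2 fold change of 0.97 ± 0.22 (SE, edgeR adjusted p = 0.0136). Tnfaip3 had 176, 265, 223 and 151 CPM against 60.8 to 136 CPM, a log2 fold change of 0.98 ± 0.26 (SE, edgeR adjusted p = 0.0262). Neither gene's groups overlapped, as was the case for 25.9% of all genes, and the call for Tnfaip3 was lost in 4 of 8 fits without 1 library (the first or the fourth untreated, the second or the third treated; edgeR adjusted p = 0.0524 to 0.0665) and in 1 fit over all groups. In splenic PMN-MDSC, Tnfaip3 gave 0.92 ± 0.26 (SE, edgeR adjusted p = 0.0575), and it was called by DESeq2 (18.6% of all genes called), without the filter on low counts (6.58% called, edgeR adjusted p = 0.0148) and without the first treated library (1.16, edgeR adjusted p = 0.0169). Nfkbiz gave -0.071 ± 0.25 (SE, edgeR adjusted p = 0.89) there.

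The other inducible genes were spread among treated splenic M-MDSC libraries. Relb had 135, 265, 136 and 47.3 CPM against 48.3 to 87.1 CPM in untreated mice. The first 3 treated libraries lay above all untreated ones and the fourth at their lower end, and the log2 fold change was 1.32 ± 0.46 (SE, edgeR adjusted p = 0.0775). Nfkbie had 175, 323, 207 and 111 CPM (0.93 ± 0.33 SE, edgeR adjusted p = 0.0793) and Nfkb2 had 254, 402, 246 and 140.2 CPM (0.59 ± 0.28 SE, edgeR adjusted p = 0.175), and the fourth library was lowest in both. Without that library Relb gave 1.65 (edgeR adjusted p = 0.00584), Nfkbie 1.18 (edgeR adjusted p = 0.0192), and Nfkb2 0.84 (edgeR adjusted p = 0.0191), which made 6 called genes in place of 3. With all libraries, Relb and Nfkbie were called by DESeq2 and in 1 fit over all groups (edgeR adjusted p = 0.00327 and 0.0126), where 23.1% and 14% of all genes were called. The fourth library held 141 CPM of 6 B cell markers and 42.02 CPM of 6 T and NK cell markers, against 13.4 to 21.3 and 4.34 to 6.11 CPM in the other treated libraries, and the lowest interferon-stimulated sum of its group, 4022 CPM. Their part in the result was not tested. Rel had 131 to 211 CPM in untreated and 63.7 to 136 CPM in treated mice, with -0.59 ± 0.23 (SE, edgeR adjusted p = 0.107). Nfkb1 gave -0.23 ± 0.22 (SE, edgeR adjusted p = 0.509), Rela 0.067 ± 0.19 (SE, edgeR adjusted p = 0.837), and Bcl3 0.43 ± 0.35 (SE, edgeR adjusted p = 0.425).

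In splenic PMN-MDSC the remaining genes were Relb with 0.59 ± 0.22 (SE, edgeR adjusted p = 0.116), Bcl3 with 0.31 ± 0.398 (SE, edgeR adjusted p = 0.662), Nfkb1 with 0.2998 ± 0.22 (SE, edgeR adjusted p = 0.417) and Nfkb2 with 0.19 ± 0.21 (SE, edgeR adjusted p = 0.61). Rela gave -0.13 ± 0.19 (SE, edgeR adjusted p = 0.712). Nfkbie and Rel gave -0.0299 ± 0.21 (SE, edgeR adjusted p = 0.948) and -0.011 ± 0.27 (SE, edgeR adjusted p = 0.986). The difference between the treatment effects of the 2 splenic populations was tested as an interaction, and 0 of 10 genes were called by edgeR or DESeq2, 1 with an unadjusted p under 0.05, where 10.9% of 8417 genes were called by edgeR, 15.4% by DESeq2 and 27.6% had an unadjusted p under 0.05. For Nfkbia the interaction was 0.12 ± 0.32 (SE, edgeR adjusted p = 0.849), and for Nfkbiz -0.96 ± 0.37 (SE, edgeR adjusted p = 0.105). Nfkbiz was called with upper-quartile scaling and without the filter on low counts (edgeR adjusted p down to 0.0353, with 11% and 5.1% of all genes called), and without the second treated PMN-MDSC library (-1.32, edgeR adjusted p = 0.0297).

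In the tumor, 0 of the 10 genes were called with poly(I:C)c in either population, where 3.36% of 8308 genes were called (2.29% higher and 1.07% lower) in PMN-MDSC and 2.88% of 8360 genes were called (1.82% higher and 1.06% lower) in M-MDSC. By edgeR 2 genes in PMN-MDSC and 4 in M-MDSC had an unadjusted p under 0.05, as did 18.2% and 19.2% of all genes. DESeq2 called Rel in PMN-MDSC and Rel, Nfkb1 and Bcl3 in M-MDSC, all lower in treated mice, and 7.38% and 9.52% of all genes. With no low count filter edgeR called Rel in PMN-MDSC and Rel, Bcl3 and Nfkbia in M-MDSC, and 2.91% and 4.1% of all genes. In 1 fit over all groups it called Rel in both and Nfkb1 in M-MDSC, and 4.14% and 9.68% of all genes. With upper-quartile scaling it called Rel in PMN-MDSC, and 3.27% of all genes. In M-MDSC all 10 log2 fold changes were below 0, with a median of -0.64 (all genes -0.00037), and in PMN-MDSC 8 of 10, with a median of -0.21 (all genes 0.0064). Of the 10 interferon-stimulated genes 9 were higher in treated PMN-MDSC and 4 in treated M-MDSC, with sums of 1986 to 4476 CPM in treated against 409 to 491 CPM in untreated PMN-MDSC and 1756 to 3854 against 451 to 667 CPM in M-MDSC. The immediate early and heat shock genes summed to 13492 to 13763 CPM in untreated and 8866 to 11519 CPM in treated tumor M-MDSC, without overlap, and 0 of 11 were called by edgeR (median log2 fold change -0.45). Of 8 monocyte markers, 2 were higher and 2 lower in treated tumor PMN-MDSC, with sums of 4528 to 9071 CPM in untreated and 1504 to 3220.05 CPM in treated mice that did not overlap. None of the 10 neutrophil and 6 macrophage markers was called there by edgeR, and their sums overlapped, with 1069 to 4521 CPM in untreated and 4091 to 10333 CPM in treated mice for neutrophil and 8970.2 to 12331 and 7042 to 18110.2 CPM for macrophage markers. Their part in the results was not tested.

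Rel had 159, 171, 188 and 199 CPM in tumor PMN-MDSC of treated mice against 233 to 362 CPM in untreated mice. The groups did not overlap, as was the case for 12.1% of all genes, and the log2 fold change was -0.79 ± 0.19 (SE, edgeR adjusted p = 0.0529). Without the fourth treated library it was -0.902 (edgeR adjusted p = 0.0238). In tumor M-MDSC Rel had 204, 172 and 228 CPM against 295 to 422 CPM, also without overlap, with -0.85 ± 0.1999 (SE, edgeR adjusted p = 0.0559). Nfkb1 had 195 to 263 CPM against 242 to 374 CPM in PMN-MDSC (-0.496 ± 0.17 SE, edgeR adjusted p = 0.151) and 276, 241 and 280.4 CPM against 376 to 453 CPM in M-MDSC (-0.73 ± 0.18 SE, edgeR adjusted p = 0.0657). By TMM-scaled levels the groups were apart for Nfkb1 in both populations, although the PMN-MDSC levels per library total overlapped.

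The feedback genes Nfkbia, Nfkbiz and Tnfaip3 varied strongly among treated tumor libraries. In PMN-MDSC Nfkbia had 580.5, 956, 1051 and 2329 CPM, Nfkbiz 853, 1242, 1301 and 3022 CPM and Tnfaip3 975, 1540.05, 1664 and 4344 CPM. For all 3 the fourth library was above every untreated library, whose ranges were 1205 to 1714, 1721 to 2166 and 2031 to 2683 CPM, and the other 3 lay below the untreated minimum. The log2 fold changes were -0.22 ± 0.41 (SE, edgeR adjusted p = 0.821) for Nfkbia, -0.19 ± 0.39 (SE, edgeR adjusted p = 0.842) for Nfkbiz and -0.0598 ± 0.44 (SE, edgeR adjusted p = 0.958) for Tnfaip3. Without the fourth library they were -0.84 (edgeR adjusted p = 0.101), -0.799 (edgeR adjusted p = 0.0773) and -0.79 (edgeR adjusted p = 0.11). Nfkbie, Nfkb2, Bcl3, Relb and Rela gave -0.43, -0.18, -0.31, 0.23 and 0.11. The fourth library had the highest immediate early and heat shock sum of its group, 17023 CPM against 9365 to 15999 in the others, the lowest macrophage sum, 7042 against 11697 to 18110.2 CPM, and the highest interferon-stimulated sum, 4476 CPM. Their part in the result was not tested.

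In tumor M-MDSC Nfkbia had 699.8, 251 and 1094 CPM in treated mice against 1465, 1328, 1304 and 991 CPM in untreated mice. By TMM-scaled levels the groups were apart, as was the case for 19.5% of all genes, and the log2 fold change was -0.99 ± 0.43 (SE, edgeR adjusted p = 0.248). Without the filter on low counts it was -0.98 (edgeR adjusted p = 0.00479). Bcl3 had 76.7, 30.3 and 73.3 CPM against 118, 119.96, 109 and 102 CPM, all treated libraries lower, with -1.003 ± 0.31 (SE, edgeR adjusted p = 0.111). Tnfaip3 had 1012, 429 and 2047 CPM, a span that contained the untreated range of 1338 to 1982 CPM, with -0.65 ± 0.45 (SE, edgeR adjusted p = 0.48). Nfkbiz gave -0.62 ± 0.305 (SE, edgeR adjusted p = 0.304), Nfkbie -0.45, Nfkb2 -0.45, Rela -0.17 and Relb -0.098. The second treated library was lowest of the 3 in all 10 genes, and it held 27752 CPM of macrophage markers and 136 CPM of T and NK cell markers, against 5030.3 to 10564 and 6.74 to 21.7 CPM in the others. The monocyte markers summed to 2642 to 5983 CPM in treated and 11150.2 to 14823 CPM in untreated tumor M-MDSC, and the part of cell makeup was not tested.

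The study asked for a change of 2-fold or more with an adjusted p below 0.001 from DESeq2. Here these thresholds were put on the edgeR fits, so the counts are not those of the study's own test. For Nfkbia in splenic PMN-MDSC the DESeq2 adjusted p was 5.92e-06. Its log2 fold change was 1.24 to 1.43 over the alternatives, so by DESeq2 it passed both thresholds. In splenic M-MDSC the thresholds on edgeR called 1 gene with poly(I:C)c, Nfkbia, where 2.49% of genes passed, and 0 in splenic PMN-MDSC, tumor PMN-MDSC and tumor M-MDSC, where 0.0413%, 0.241% and 0.012% passed. For tumor against spleen they called 5 of 10 in PMN-MDSC and 5 of 10 in M-MDSC, where 21.7% and 8.6% of all genes passed, and for bulk tumor 10 and 10 of 10, where 40.5% and 41.9% passed. Between PMN-MDSC and M-MDSC they called 1 in spleen and 0 in tumor, where 23.2% and 1.65% passed.

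**Figure D4:**
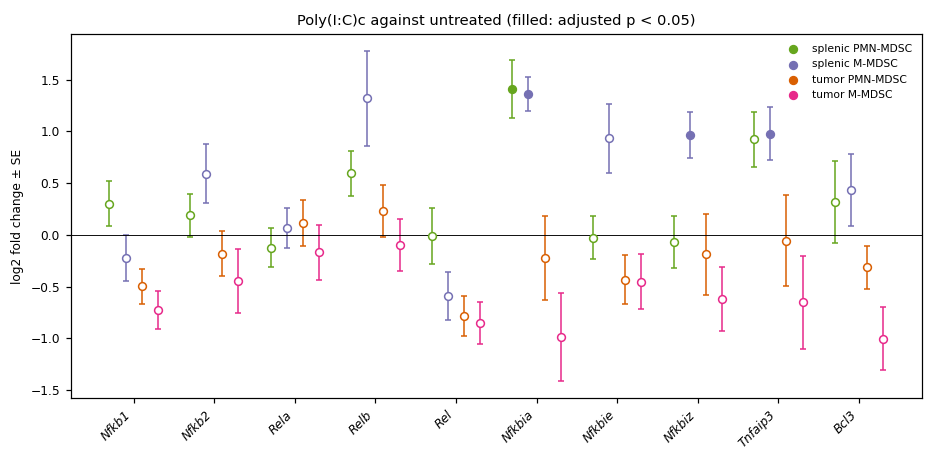
Log2 fold changes with their SE of the 10 genes with poly(I:C)c in the 4 MDSC populations, filled where the adjusted p was under 0.05. Filled points are those of Nfkbia in both splenic populations and of Nfkbiz and Tnfaip3 in splenic M-MDSC, and the points of tumor M-MDSC all lie below 0.

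Whether the treatment effect differed between tumor and spleen was tested as an interaction within each population. In M-MDSC 1 gene, Nfkbia, was called, with a difference of the 2 effects of -2.35 ± 0.47 (SE, edgeR adjusted p = 0.0365), where 0.79% of 8730 genes were called. Its log2 fold change with treatment was 1.36 in the spleen and -0.99 in the tumor. The call was lost in 11 of 15 fits that left out 1 library, with adjusted p-values up to 0.0845 and differences of -2.46 to -2.22 in those fits. All 10 differences were below 0, with a median of -1.39 (all genes 0.031), and 7 had an unadjusted p under 0.05, as did 14.2% of all genes. Nfkbiz gave -1.59 ± 0.38 (SE, edgeR adjusted p = 0.0668), Tnfaip3 -1.63 ± 0.54 (SE, edgeR adjusted p = 0.172), and Nfkbie -1.38 ± 0.45 (SE, edgeR adjusted p = 0.163). DESeq2 called Nfkbia and Nfkbiz, and 3.52% of all genes, and without the filter on low counts edgeR called 7, all but Nfkb1, Rela and Rel, and 2.21% of all genes. Without the third treated tumor library, the one with the highest Nfkbia, Nfkbiz and Tnfaip3 levels of its group, Nfkbiz gave -2.03 (edgeR adjusted p = 0.0181), and Tnfaip3 -2.33 (edgeR adjusted p = 0.0295).

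In PMN-MDSC 0 of 10 genes were called for the difference between organs, where 3.5% of 8047 genes were. By edgeR 3 had an unadjusted p under 0.05, as did 16.5% of all genes, and DESeq2 called 2, Nfkb1 and Nfkbia, and 6.23% of all genes. Nfkbia was also called by edgeR without the filter on low counts, where 2% of all genes were. Nfkbia gave -1.6005 ± 0.55 (SE, edgeR adjusted p = 0.133), Nfkb1 -0.77 ± 0.26 (SE, edgeR adjusted p = 0.126), and Rel -0.76 ± 0.33 (SE, edgeR adjusted p = 0.257). Without the fourth treated tumor library, Nfkbia gave -2.21 (edgeR adjusted p = 0.00861), and Tnfaip3 -1.696 (edgeR adjusted p = 0.0188). Between PMN-MDSC and M-MDSC of the tumor the treatment effects of 0 of 10 genes differed by edgeR or DESeq2 or at an unadjusted p under 0.05, and 0.0239% of 8385 genes were called by edgeR, 0.262% by DESeq2, and 8.59% had an unadjusted p under 0.05.

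The rest of the pathway was read from lists of 26 receptors, adaptors and kinases upstream of NF-kB, 15 further regulators and 30 target genes, of which the low count filter left fewer to test. Of the upstream genes, tumor against spleen gave 4 higher and 8 lower of 25 tested in PMN-MDSC (median -0.14, all genes 0.0098) and 3 higher and 2 lower of 25 tested in M-MDSC (median -0.061, all genes 0.016). The receptor gene Tnfrsf11a, which encodes RANK, was higher in the tumor in both, by 2.49 ± 0.45 (SE, edgeR adjusted p = 8.64e-04) in PMN-MDSC and 1.17 ± 0.201 (SE, edgeR adjusted p = 9.71e-04) in M-MDSC. Cd40, which was on the target list as well and counts in both, was higher in tumor PMN-MDSC by 2.33 ± 0.53 (SE, edgeR adjusted p = 0.00352). Irak2, a kinase downstream of interleukin-1 and Toll-like receptors, was higher in tumor M-MDSC by 1.503 ± 0.19 (SE, edgeR adjusted p = 9.88e-05). The further regulators gave 5 higher and 5 lower of 15 tested in PMN-MDSC (median -0.0605) and 4 higher and 1 lower of 14 tested in M-MDSC (median 0.12). Beside both lists, the share of all genes called was 59.1% in PMN-MDSC and 28.4% in M-MDSC.

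Among these regulators, Nfkbid, which encodes the nuclear IkB protein IkB NS, was higher in the tumor by 2.73 ± 0.23 (SE, edgeR adjusted p = 1.11e-05) in PMN-MDSC and 3.07 ± 0.16 (SE, edgeR adjusted p = 1.33e-07) in M-MDSC. Tnip3, an A20-binding protein, was higher in tumor PMN-MDSC by 3.42 ± 0.56 (SE, edgeR adjusted p = 4.76e-04), and Zc3h12a, an RNase that degrades cytokine transcripts, in tumor M-MDSC by 2.44 ± 0.2004 (SE, edgeR adjusted p = 3.40e-06). In bulk tumor Nfkbid had 0.529 to 1.01 CPM, against 358 to 722 CPM in tumor PMN-MDSC. Between PMN-MDSC and M-MDSC, Otud7b, a deubiquitinase, was higher in PMN-MDSC in spleen (3.08 ± 0.26 SE, edgeR adjusted p = 1.24e-05) and tumor (2.48 ± 0.56 SE, edgeR adjusted p = 0.0128).

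Of the target genes, tumor against spleen gave 23 higher and 0 lower of 28 tested in PMN-MDSC (median 2.82) and 26 higher and 0 lower of 27 tested in M-MDSC (median 4.204, the same with 2 genes without any splenic count set to 3 counts in the smallest library). Of all genes, 29.4% were called higher and 29.7% lower in PMN-MDSC, and 15.7% and 12.7% in M-MDSC. Il1a, the interleukin-1 alpha gene, had 0.963 to 3.98 CPM in splenic and 550.1 to 845 CPM in tumor PMN-MDSC. The prostaglandin synthase gene Ptgs2 had 0 to 1.05 CPM in splenic and 1266 to 2653 CPM in tumor M-MDSC, and the neutrophil chemokine gene Cxcl2 0 to 0.527 and 541 to 1032 CPM, where the splenic libraries held at most 3 counts of Ptgs2 and 1 of Cxcl2. Bulk tumor against tumor PMN-MDSC gave 0 higher and 28 lower of 28 tested (median -6.34), and against tumor M-MDSC 1 higher and 25 lower of 28 tested (median -6.21). Of all genes, 36.9% were called higher and 32.8% lower against PMN-MDSC, and 38.2% and 31% against M-MDSC.

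With poly(I:C)c, targets gave 10 higher and 0 lower of 19 tested in splenic M-MDSC (median 1.39, all genes -0.028) and 5 higher and 1 lower of 20 tested in splenic PMN-MDSC (median 0.404, all genes 0.014). Of all genes, 9.96% were called higher and 9.48% lower in splenic M-MDSC, and 6.1% and 5.52% in splenic PMN-MDSC. In the tumor the targets gave 1 higher and 4 lower of 29 tested in PMN-MDSC and 3 higher and 2 lower of 30 tested in M-MDSC. There 2.29% of all genes were called higher and 1.07% lower in PMN-MDSC, and 1.82% and 1.06% in M-MDSC. The chemokine gene Ccl5, which interferon regulatory factors also control, rose in tumor PMN-MDSC by 4.85 ± 0.37 (SE, edgeR adjusted p = 1.37e-04), in splenic M-MDSC by 5.75 ± 0.42 (SE, edgeR adjusted p = 4.69e-05), and in tumor M-MDSC by 5.59 ± 0.78 (SE, edgeR adjusted p = 0.0128). The nitric oxide synthase gene Nos2, called higher in splenic PMN-MDSC, had 0 to 0.996 CPM in untreated mice, at most 2 counts a library, and 2.56, 4.46 and 175 CPM in treated mice, so that 1 library held most of its treated level. Nos2 was also called higher in tumor M-MDSC (edgeR adjusted p = 0.0255). Its TMM-scaled means there were 30.97 ± 13.9 CPM in treated and 2.95 ± 2.57 CPM in untreated mice (SD). Ptgs2 fell in splenic PMN-MDSC, from levels of 23.9 to 63.9 CPM in untreated to 0.36 to 4.46 CPM in treated mice, and Il6 in tumor PMN-MDSC with -2.07 ± 0.48 (SE, edgeR adjusted p = 0.0435). Trim30a, an interferon-inducible inhibitor, rose in splenic PMN-MDSC by 1.41 ± 0.29 (SE, edgeR adjusted p = 0.02), in splenic M-MDSC by 1.09 ± 0.15 (SE, edgeR adjusted p = 0.00107), and in tumor PMN-MDSC by 1.24 ± 0.22 (SE, edgeR adjusted p = 0.0108). Tnip1, an A20-binding inhibitor, rose in splenic M-MDSC by 1.41 ± 0.19 (SE, edgeR adjusted p = 9.91e-04). Tnip3 fell in tumor PMN-MDSC with -2.23 ± 0.303 (SE, edgeR adjusted p = 0.00236) and in tumor M-MDSC with -1.74 ± 0.33 (SE, edgeR adjusted p = 0.0308).

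**Figure D5:**
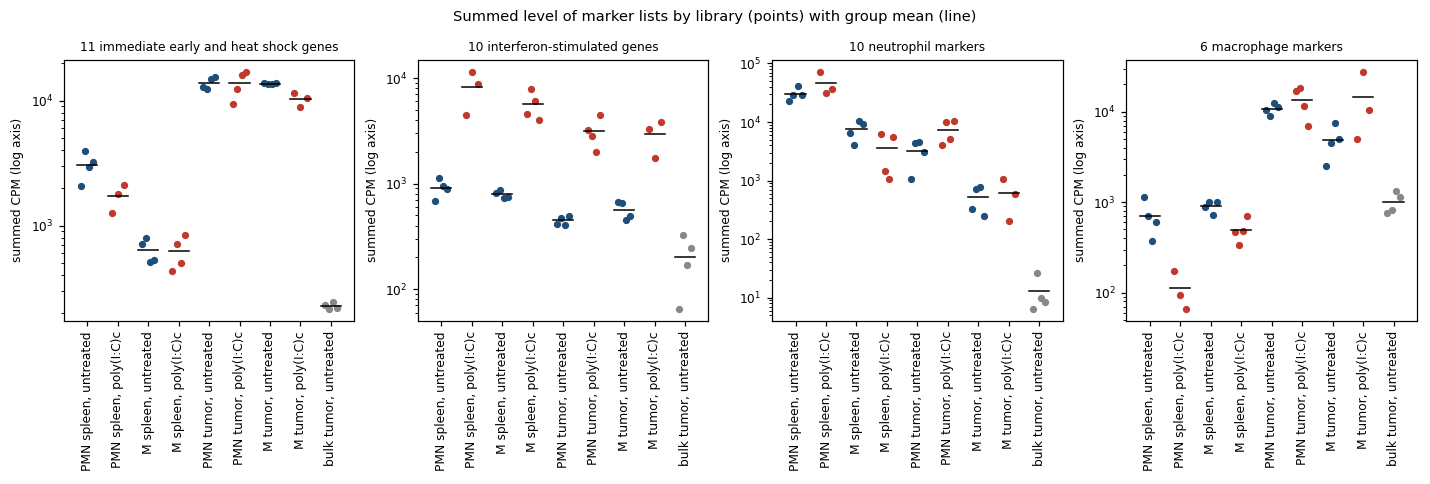
Summed level in CPM (log axis) of 4 gene lists in every library (points) with the group mean (line), in blue for untreated, red for poly(I:C)c and gray for bulk tumor. Immediate early and heat shock genes are high in all tumor MDSC, interferon-stimulated genes are high in all treated libraries, and the tumor PMN-MDSC of untreated mice lie low in neutrophil and high in macrophage markers.

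The genes most like the members were found by Pearson's r of log2(CPM + 1) over the 30 MDSC libraries among 8536 genes. These correlations are descriptions, since the libraries share organ, gate and treatment. Nfkbiz was most like Cxcl2 (r = 0.974) and Ptgs2 (r = 0.9695). Nfkbia was most like Ccrl2 (r = 0.9596) and Tnfaip3 (r = 0.955), and Tnfaip3 like Tgif1 (r = 0.958). Nfkbie was most like Dusp2 and Cdkn1a (r = 0.955 for both). Among the subunits, Rel was most like Gm48065 (r = 0.928) and Spag9 (r = 0.923), Nfkb2 like Adora2a (r = 0.906) and Cd40 (r = 0.883), and Relb like Mapkapk2 (r = 0.853) and Nfkb2 (r = 0.829). Rela, with Crtc2 (r = 0.789) and Sec16a (r = 0.672), and Bcl3, with Mefv (r = 0.6503) and Csf2rb (r = 0.644), had the weakest nearest genes. Between Nfkbia and Rela, r was 0.208.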

How the data were processed

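RNA of 35 samples was read as deposited raw counts per gene. Per the methods and the labels, the authors prepared rRNA-depleted total RNA with a stranded low-input kit (13 PCR cycles), mapped reads to GRCm38 with ContextMap using BWA, and counted them per Gencode gene and strand with featureCounts (Subread 1.4.6-p3). PCR copies were not removed by molecular identifiers. The letter G in the column names was read as PMN-MDSC. One column, a treated tumor M-MDSC library with 10 counts, was left out, which left 34 libraries.

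Counts were tested in R 4.3.3 with edgeR 4.0.16 (TMM scaling, robust quasi-likelihood F-test, two-sided), with only the groups compared in a fit, genes averaging 25 counts or more in them, and Benjamini-Hochberg adjustment over all genes tested. FPKM used summed exon length of GENCODE M21. Groups were taken from the sample labels and from matching column names. Alternatives were RLE and upper-quartile scaling, DESeq2 1.42.0, the study's thresholds (set there on DESeq2, here on edgeR), no low count filter, 1 fit over all groups, and each library left out. Overlap between groups was read from TMM-scaled CPM. The 10 genes and all lists were chosen with earlier results of these data known. Named were all 10 genes and, of each pathway list, genes from the 2 called with the largest fold change in a comparison, with levels in place of fold changes where a group held at most 3 counts of a gene in a library. No comparison columns by the authors were used. Promoter windows were those of RefSeq for GRCm38.p6. The full genotype of the tumor line and the genes most like Nfkb1 are not reported here.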

Additional observations from a re-analysis of the deposited data

Results flagged for a closer look

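Nfkbia stood out for the difference of its treatment effects between organs in M-MDSC, -2.35 on the log2 scale by an interaction term, as described above.

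Among 70 sets of a gene and a group of 4 libraries, 2 held a library far from the others by Dixon's test, which chance gives in about 1 of 20. Nfkbie had 84.9 CPM in the first splenic PMN-MDSC library of untreated mice against 53.3 to 58.3 CPM in the other 3. Bcl3 had 92.6 CPM in the fourth tumor PMN-MDSC library of treated mice against 60.1 to 63.0 CPM in the other 3, the library in which Nfkbia, Nfkbiz and Tnfaip3 were also highest.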

How the results depend on the processing

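The 10 tumor against spleen calls of Nfkbia, Nfkbie, Nfkbiz, Tnfaip3 and Rel and all 20 bulk tumor calls held with RLE and upper-quartile scaling, DESeq2, no low count filter, 1 fit over all groups and without any 1 library. The number of called genes moved elsewhere. In splenic PMN-MDSC with poly(I:C)c it was 1, and 0 by the study's thresholds put on edgeR (below, the strict edgeR rule). It was 2 with DESeq2 and 2 without the filter, where Tnfaip3 was added. In tumor PMN-MDSC it was 0, and 1, Rel, with upper-quartile scaling, DESeq2, no filter or 1 fit. In splenic M-MDSC it was 3, and 1 by the strict edgeR rule and 5 with DESeq2, where Relb and Nfkbie were added. Both were also called in 1 fit, where Tnfaip3 was not. In tumor M-MDSC it was 0, and 3 with DESeq2, 3 without the filter and 2 in 1 fit. PMN-MDSC against M-MDSC gave 1 in place of 5 by the strict edgeR rule in spleen, and 2 in place of 0 with DESeq2 in tumor. The organ interaction of PMN-MDSC gave 2 with DESeq2 and 1 without the filter in place of 0. That of M-MDSC gave 0 by the strict edgeR rule, 2 with DESeq2 and 7 without the filter in place of 1. The population interaction in spleen gave 1, Nfkbiz, with upper-quartile scaling or no filter in place of 0. With 1 library left out the counts ran from 0 to 2 in splenic PMN-MDSC, 0 to 1 in tumor PMN-MDSC, 2 to 6 in splenic M-MDSC, 0 to 2 and 0 to 3 for the organ interactions of PMN-MDSC and M-MDSC, and 0 to 1 for the population interaction in spleen. The cause was not tested.

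Signs turned for differences that were not called. With upper-quartile scaling Bcl3 gave 0.059 for tumor against spleen in PMN-MDSC. In the splenic population interaction Nfkbia gave -0.0795 with that scaling and -0.029 in 1 fit, and Tnfaip3 gave -0.036 with RLE, -0.18 with upper-quartile scaling, -0.036 with DESeq2, -0.079 without the filter and -0.11 in 1 fit. In that of the tumor Nfkbie gave -0.048 with upper-quartile scaling and -0.018 in 1 fit. With 1 library left out the log2 values crossed 0 with these ranges. With poly(I:C)c they were -0.11 to 0.104 for Nfkbie, -0.39 to 0.13 for Nfkbiz and -0.24 to 0.12 for Rel in splenic PMN-MDSC, -0.84 to 0.029 for Nfkbia, -0.799 to 0.039 for Nfkbiz, -0.072 to 0.24 for Rela and -0.79 to 0.197 for Tnfaip3 in tumor PMN-MDSC, -0.12 to 0.21 for Rela in splenic M-MDSC and -0.32 to 0.034 for Rela and -0.298 to 0.13 for Relb in tumor M-MDSC. Tumor against spleen gave -0.35 to 0.37 for Bcl3 in PMN-MDSC, and PMN-MDSC against M-MDSC in tumor -0.14 to 0.12 for Nfkb2, -0.046 to 0.22 for Nfkbie and -0.31 to 0.034 for Relb. The organ interaction of PMN-MDSC gave -0.71 to 0.25 for Nfkbiz. The population interaction gave -0.45 to 0.38 for Bcl3, -0.14 to 0.34 for Nfkbia, -0.32 to 0.092 for Rela and -0.304 to 0.28 for Tnfaip3 in spleen and -0.048 to 0.65 for Nfkb2, -0.24 to 0.19 for Nfkbie, -0.15 to 0.87 for Nfkbiz, -0.055 to 0.17 for Rel and -0.11 to 1.28 for Tnfaip3 in tumor.

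Upper-quartile scaling moved the split of all called genes from 443 higher and 401 lower to 336 and 607 (median log2 fold change 0.014 and -0.16) for poly(I:C)c in splenic PMN-MDSC, from 2346 higher and 2368 lower to 2759 and 1993 (median log2 fold change 0.0098 and 0.17) for tumor against spleen in PMN-MDSC, from 1302 higher and 1055 lower to 1030 and 1590 (median log2 fold change 0.016 and -0.13) for tumor against spleen in M-MDSC, from 2655 higher and 2868 lower to 2042 and 3715 (median log2 fold change -0.082 and -0.33) for PMN-MDSC against M-MDSC in spleen, and from 371 higher and 543 lower to 200 and 726 (median log2 fold change 0.023 and -0.16) for the splenic population interaction. With it the call of Bcl3 for tumor against spleen in M-MDSC was lost at 0.78. No paired analysis was possible from the labels alone, because no label ties a count column to a mouse number. Column order was not used to pair libraries. The columns do run in the order of the sample titles, so a pairing by order could have been tried, and it was not tested. By that order the last treated library of each MDSC population in each organ would come from the same mouse. Leaving out each of these libraries changed calls, as given above, but so did leaving out others. Groups of 3 or 4 libraries and depths of 793070 to 4357105 counts limit what could be called, and the 2 treatment groups of 3 rest on fewer.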
